A study of Mus musculus with 26 samples.

Results

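Ribosome footprints were compared between the striatum of LRRK2 KO mice and that of WT mice. The members were chosen by table: all 9561 transcripts (9535 gene symbols) of the deposited LRRK2 KO table were kept, of 26713 rows in the 3 striatal tables of the series, where a transcript can recur between tables. For each transcript the change is the log2 ratio of the LRRK2 KO footprinting mean to the WT footprinting mean, so a negative value means fewer footprints in LRRK2 KO. Only group means are deposited, with no error beside them.

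The series holds 26 samples of footprinting or RNA-Seq from mouse brain. All mice were C57BL/6 and are labelled 3 months old. The compared groups are wild-type (WT) mice and mice labelled as LRRK2 knock-out (LRRK2 KO). For a few genes, values are also given from striatum of G2019S LRRK2 and G2019S/D1994A LRRK2 transgenic mice, whose transgene is driven through a CaMKII promoter per the study's methods, and from their non-transgenic controls. Per the study's methods the striatal samples were caudate putamen pooled from 3 mice of both sexes, so a library is a pool and not a single animal.

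LRRK2 is a large protein with a kinase and a GTPase domain, and inherited mutations in it cause Parkinson's disease. It phosphorylates a subset of Rab GTPases, which direct membrane traffic, and in the brain it is prominent in the projection neurons of the striatum. Ribosome profiling sequences the short mRNA pieces that ribosomes protect, so a transcript's footprint count depends both on how much of the mRNA is present and on how heavily it is translated.

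The labels list 3 striatal footprinting libraries for each genotype. The study analysed replicates 1 and 2 jointly and sequenced the third pair as an addition, and the deposited means resolved as means of 2 libraries each. A mean of 2 libraries is a sum of whole read counts times fixed steps, and the means are printed with 10 significant digits, so the reads of each library could be recovered for 9536 transcripts with all 4 libraries. In WT 99.8% of the means resolved, against 0% after the values were shifted; in LRRK2 KO 99.8% resolved, against 0.0314% after the shift. The deeper WT library held 4884673 footprints and the shallower WT library 2900151. The deeper LRRK2 KO library held 5706166 and the shallower LRRK2 KO library 2704605. The median transcript had 212 and 119 footprints in the WT libraries and 251 and 113 in the LRRK2 KO libraries. Library values below are these reads divided by the authors' size factors, called normalized footprints. The 25 transcripts that did not resolve in a genotype are among the most abundant, and the lowest mean that did not resolve was 10207.

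The libraries stood apart by depth more than by genotype. Across transcripts, Spearman's rho was 0.983 between the deeper WT and deeper LRRK2 KO libraries and 0.986 between the shallower ones, but 0.897 between the 2 WT libraries and 0.901 between the 2 LRRK2 KO libraries. Genes are not independent replicates, so these are descriptions. The same split showed in transcripts without reads: 20 were at 0 in both deeper libraries alone, 1 in both shallower libraries alone, and 0 in either crossed combination. Genes of the Y chromosome separated the libraries most plainly. Ddx3y, an RNA helicase gene, had 7.79 normalized footprints in the deeper WT library, 442 in the shallower WT library, 13.7 in the deeper LRRK2 KO library and 376 in the shallower LRRK2 KO library. Uty, a histone demethylase relative, had 3.11, 168, 4.11 and 147 in the same order, and Kdm5d, also a histone demethylase gene, had 0, 112, 0 and 92.3. Male transcripts were thus near 0 in both deeper libraries and plentiful in both shallower ones, whereas the methods describe pools of both sexes. A deeper pair and a shallower pair, each with a WT and an LRRK2 KO library, are therefore compared within themselves below. The pairs were read from the values, not from labels. A change within a pair is the log2 ratio of LRRK2 KO to WT after adding 10 normalized footprints to each library, so it is smaller in size than the plain ratio for transcripts with few footprints.

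Lrrk2 itself, on chromosome 15 at 91503606 to 91646551 (mm9), had 400 normalized footprints in the deeper WT library and 690 in the shallower WT library. In LRRK2 KO it had 102 in the deeper library and 150 in the shallower library. Both LRRK2 KO libraries lay below both WT libraries, and the deposited mean went from 545 to 126, a change of -2.12. The libraries still held 149 and 107 Lrrk2 reads in LRRK2 KO against 514 and 518 in WT, so the label holds as a strong reduction of footprints over the whole transcript and not as their absence. Which exons the remaining reads cover cannot be read from a count per transcript. The Lrrk2 RNA-Seq mean went from 1006 to 347, a change of -1.54. The limma fit on log2 of normalized footprints plus 10 gave Lrrk2 -2.00 with an SE of 0.36 without pairs and 0.17 with the library pair as a block. With the block it fell with an adjusted p of 5.99e-28.

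The tissue label was checked against marker genes. Ppp1r1b, the dopamine-regulated phosphatase inhibitor DARPP-32 of striatal projection neurons, had 9578 and 8502 normalized footprints in the WT libraries and 10510 and 8435 in the LRRK2 KO libraries. Penk, the enkephalin precursor of indirect pathway neurons, had 10571 and 3299 in WT and 10134 and 3142 in LRRK2 KO, the deeper library first in each case. Cortical and midbrain markers were lower than Ppp1r1b and Penk. Slc17a7, the vesicular glutamate transporter of cortical neurons, had means of 1260 and 1062. Ddc, the only measured dopamine neuron marker, had means of 56.4 and 39.5. Slc17a7 lay above the less abundant projection neuron markers Tac1 (means of 605 and 749) and Drd1a (549 and 665). Tbr1, another cortical marker, had means of 632 and 659. Th and Slc6a3, which define midbrain dopamine neurons, are not listed in the table. Ppp1r1b and Penk were abundant in all 4 libraries, which fits the striatal label, but cortical markers were present too. In the non-transgenic controls of the G2019S comparison, Ppp1r1b had a mean of 32311 and Slc17a7 of 995. How much cortical tissue the WT and LRRK2 KO pools held was not tested.

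Few transcripts passed the tests between the genotypes. Without pairs, limma called 0 of 9536 transcripts at an adjusted p under 0.05 (0.0%), with 7 at an unadjusted p under 0.05 (0.0734%); with voom weights it also called 0, with 9 unadjusted. The 7 included Acvrl1, Lrrk2, Mrpl55, Sgk1, Rabl2a and Nr4a3. Without pairs limma thus did not call Lrrk2 itself, so its 0 cannot tell how many transcripts differ. With the library pair as a block, limma called 10 (0.105%), of which 4 were higher and 6 lower in LRRK2 KO, and 253 had an unadjusted p under 0.05 (2.65%). The block fit leaves 1 residual degree of freedom per transcript, and its p-values rest on the spread pooled over transcripts of like abundance, so they assume that each gene varies like its neighbours in level. Of the 10 genes 9 are described, named after their values were seen.

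**Figure D1:**
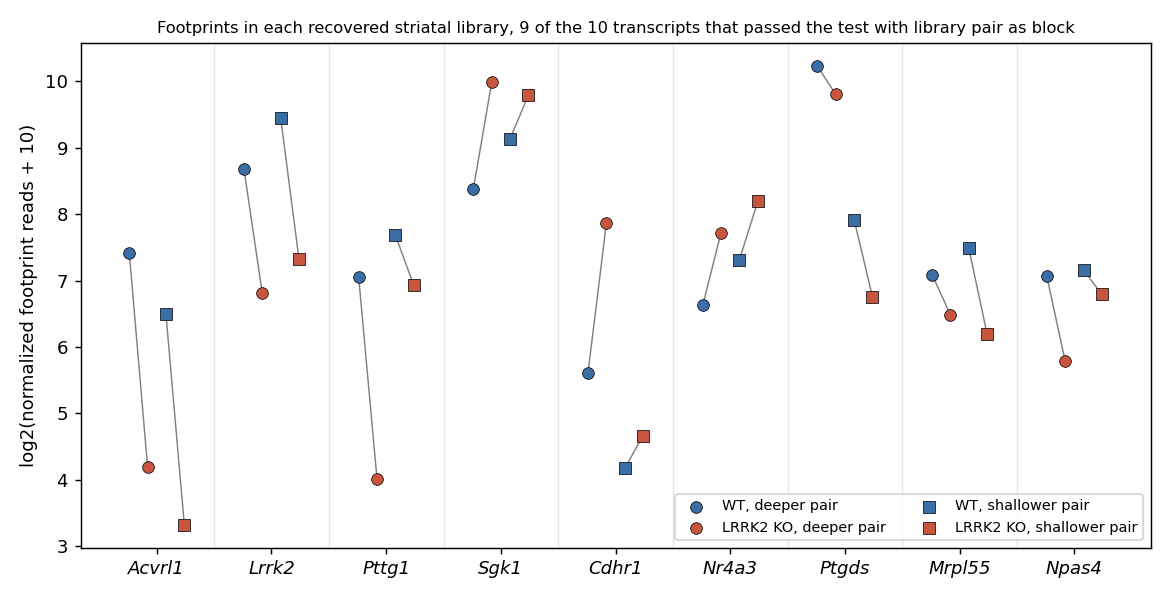
Normalized footprints (log2 after adding 10) of 9 of the 10 transcripts called with the library pair as a block, in each of the 4 recovered libraries, with lines joining the WT and LRRK2 KO library of a pair. Acvrl1 went from 161 to 8.22 in the deeper pair and from 79.9 to 0 in the shallower pair.

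Acvrl1, which encodes the receptor ALK1 for bone morphogenetic proteins on endothelial cells, had 161 normalized footprints in the deeper WT library and 79.9 in the shallower WT library. It had 8.22 in the deeper LRRK2 KO library and 0 in the shallower LRRK2 KO library, from 12 and 0 reads against 207 and 60 in WT. The genotypes did not overlap, and Acvrl1 was almost without footprints in LRRK2 KO. With the block Acvrl1 fell by 3.20 on the log2 scale (SE 0.26, adjusted p = 1.88e-31), a fitted value that depends on the pseudocount. Its RNA-Seq mean went from 189 to 18.3, a change of -3.37. Acvrl1 lies on chromosome 15 at 100958953 to 100975767, on the same chromosome as Lrrk2.

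Mrpl55, a mitochondrial ribosomal protein gene on chromosome 11 at 59015988 to 59019636, had 126 and 169 normalized footprints in WT and 79.4 and 62.9 in LRRK2 KO. Mrpl55 fell with the block (-0.95, SE 0.20, adjusted p = 0.00165), with no overlap of the libraries, and its RNA-Seq change was -0.91.

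Pttg1, the securin that inhibits separase until anaphase, is also on chromosome 11. It had 123 and 196 normalized footprints in WT against 6.16 and 112 in LRRK2 KO. The libraries did not overlap, but the size differed by pair, with a Pttg1 change of -3.04 in the deeper pair and -0.76 in the shallower pair after adding 10 to each library. Pttg1 fell with the block (-1.90, SE 0.21, adjusted p = 5.09e-16), and its RNA-Seq change was -1.32. Pttg1 was not called when the spread was estimated robustly, an alternative chosen after seeing the data.

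Sgk1, a kinase induced by glucocorticoids and by salt, had 322 and 553 normalized footprints in the deeper and shallower WT libraries. In LRRK2 KO it had 1003 and 877, so both libraries lay above WT. The Sgk1 mean went from 438 to 940, and the block fit gave a rise of 1.13 (SE 0.15, adjusted p = 7.33e-11). Its RNA-Seq change was 0.86. Among the 9 it had the most reads in the shallower LRRK2 KO library, 627.

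Nr4a3, an orphan nuclear receptor induced by neuronal activity, had 88.8 and 149 normalized footprints in WT and 201 and 283 in LRRK2 KO. The genotypes did not overlap, and Nr4a3 rose by 0.99 with the block (SE 0.18, adjusted p = 8.19e-05). Its RNA-Seq change was smaller, 0.43. Npas4, a transcription factor that neurons induce on calcium entry, went the other way, with 124 and 133 in WT and 45.2 and 101 in LRRK2 KO. Npas4 fell by 0.82 (SE 0.20, adjusted p = 0.0401), with an RNA-Seq change of -0.51. Npas4 was also not called with the robust spread.

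Cdhr1 and Ptgds were called although the genotypes overlapped, and in both genes the deeper and shallower libraries differed widely. Cdhr1, a cadherin of photoreceptors and olfactory neurons, had 38.9 normalized footprints in the deeper WT library and 223 in the deeper LRRK2 KO library, but 7.99 and 15.4 in the shallower libraries. Its shallower libraries rest on 6 and 11 reads. The block fit gave a Cdhr1 rise of 1.37 (SE 0.25, adjusted p = 3.48e-05), and the change of the means, 2.35, became -0.61 without the deeper LRRK2 KO library. Ptgds, the prostaglandin D synthase of meninges, choroid plexus and oligodendrocytes, had 1190 and 884 in the deeper pair and 232 and 97.9 in the shallower pair, WT given before LRRK2 KO. Ptgds fell with the block (-0.79, SE 0.16, adjusted p = 0.000823), with changes of -0.42 in the deeper pair and -1.16 in the shallower pair. The change of its means, -0.53, became 1.08 without the deeper WT library and 0.31 without the shallower LRRK2 KO library. Each value without a library sets a lone library against the mean of both libraries of the other genotype. It therefore also holds the gap between deeper and shallower libraries.

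In RNA-Seq of the same genotypes these 9 genes each had a change of the same sign as the footprints. Per the study's methods each lysate was split for footprinting and RNA-Seq, so both come from the same pools of mice. RNA-Seq is thus not an independent check. Over all transcripts, Spearman's rho of the RNA-Seq change with the change of the footprinting means was 0.127. The 2 transgenic comparisons of the series each have their own control means. They take their controls from 3 labelled non-transgenic libraries, and how many of these they share was not worked out. For Acvrl1 the G2019S comparison gave means of 369 and 493 (0.42) and the G2019S/D1994A comparison 480 and 337 (-0.51), control first. For Sgk1 the same comparisons gave 3669 and 4125 (0.17) and 4847 and 4043 (-0.26). Lrrk2 was higher in both transgenic comparisons, where the transgene itself is LRRK2. Its means were 2524 and 5186 (1.04) and 1335 and 6017 (2.17), control first, so the control means differed between the comparisons as well. These differences between comparisons were not tested.

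The neighbourhood of Lrrk2 on chromosome 15 was examined separately. Within 5 Mb of Lrrk2 there were 32 other transcripts, with a median change of -0.10 against 0.02 over all transcripts. None was called by limma with the block (0 of 32), and 1, Slc2a13, had an unadjusted p under 0.05. Slc2a13, a proton-coupled inositol transporter immediately before Lrrk2, had 785 and 248 normalized footprints in WT and 625 and 193 in LRRK2 KO. Its libraries overlap, but its change was -0.32 in the deeper pair and -0.34 in the shallower pair. Its RNA-Seq change was -0.79. Mapk11, a p38 kinase gene, was the only one of the 32 whose libraries did not overlap, with 77.9 and 81.3 in WT and 53.4 and 72.7 in LRRK2 KO. Cntn1, the neuronal adhesion protein gene on the far side, had means of 1131 and 1111. Kif21a, a kinesin, had means of 1215 and 1081, and Shank3, a postsynaptic scaffold, had 377 and 370. The other genes in that window ranged from Arsa, a lysosomal sulfatase, at -0.38 to Alg10b, a glucosyltransferase, at 0.23.

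Within 20 Mb of Lrrk2 there were 252 transcripts, and their median was -0.05. Without overlap 8 lay higher (3.17%) and 24 lower (9.52%), against 6.22% and 6.41% of all transcripts; 10 had an unadjusted p under 0.05 with the block (3.97%, against 2.65% of all transcripts) and 1 was called, Acvrl1. On the rest of chromosome 15, 119 transcripts had a median of 0.02, 11 lay lower without overlap (9.24%) and 3 had an unadjusted p under 0.05. Across the whole chromosome 14 of 372 transcripts had an unadjusted p under 0.05, and 12 of the 14 were lower, against 120 of 243 over all chromosomes. Rpap3, a co-chaperone that helps assemble RNA polymerase, had 157 and 193 in WT and 121 and 97.9 in LRRK2 KO. Slc4a8, a sodium-driven bicarbonate exchanger of presynaptic terminals, had 203 and 179 in WT and 149 and 105 in LRRK2 KO. Neither was called with the block. Chromosome 11 had 30 of 742 transcripts with an unadjusted p under 0.05, of which 23 were lower, and 3 calls. Chromosome 14 had the highest share, 18 of 325 (5.54%), of which 6 were lower, above the 3.76% of chromosome 15.

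**Figure D2:**
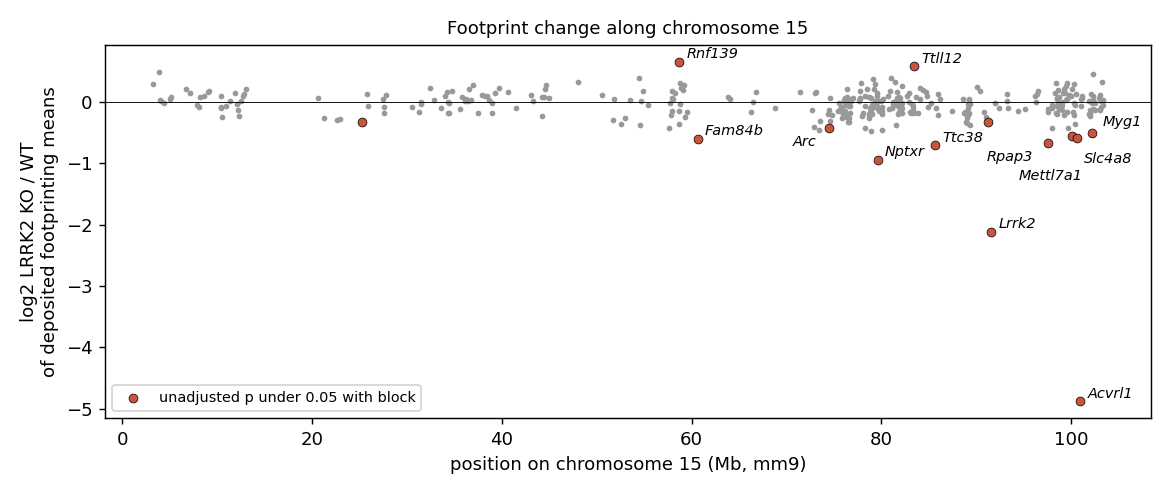
Change in footprinting means (log2, LRRK2 KO over WT) of each transcript along chromosome 15 (mm9). Lrrk2 at -2.12 and Acvrl1 at -4.88 are the lowest points.

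Over the whole table the changes were small. The SD of the change was 0.198, with a median of 0.02, a 10th percentile of -0.21 and a 90th percentile of 0.23. The spread between the 2 libraries of a genotype was wider, with an SD of 0.715 in WT and 0.711 in LRRK2 KO. The SD of the change was smaller at higher abundance, 0.297 for transcripts with a mean under 64 and 0.0656 in the most abundant of 8 groups. Counting error alone gives a median SD of 0.219 and 0.0196 for these. The means were at least 1.5-fold higher for 48 transcripts (0.502%) and at least 1.5-fold lower for 55 (0.575%). Of these 24 and 37 lay outside the range of the other genotype. Within pairs, where 10 is added to each library, 7 were at least 1.5-fold higher in both and 5 at least 1.5-fold lower in both. Leaving out a library moved the counts strongly. Without the deeper WT library 1363 were higher and 182 lower, and without the shallower WT library 569 and 646. Without the deeper LRRK2 KO library the counts were 188 and 1424, and without the shallower LRRK2 KO library 870 and 186. A lone library was there set against the mean of both libraries of the other genotype. These counts therefore also hold the gap between deeper and shallower libraries.

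Both LRRK2 KO libraries lay above both WT libraries for 593 transcripts (6.22%) and below for 611 (6.41%). These shares are the background for each count without overlap in a region or list. Overlap is judged over all libraries and not within pairs. A transcript whose deeper and shallower libraries differ widely can thus overlap although both pairs change alike. With each library centred on its median the counts became 397 and 735, so the split moved with the scaling. The change went in the same direction in both pairs for 4162 of 9536 transcripts. Across transcripts the change in the deeper pair and that in the shallower pair were related negatively (rho -0.139), more so over the 764 most abundant transcripts (rho -0.325).

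**Figure D3:**
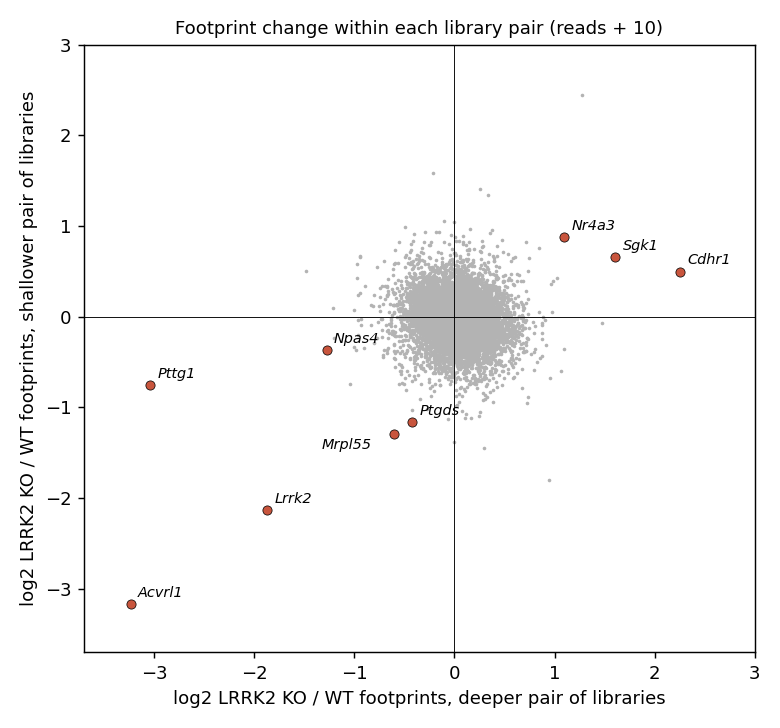
Footprint change (log2, LRRK2 KO over WT after adding 10 to each library) of each transcript in the deeper pair against that in the shallower pair. Most transcripts lie near 0 in both pairs, and Lrrk2 lies at -1.87 and -2.13.

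The base composition of the coding sequence accompanied the changes in opposite directions in the 2 pairs. Spearman's rho of coding GC content with the change was -0.604 in the deeper pair and 0.208 in the shallower pair, and -0.299 for the change of the means, across 9247 transcripts. In the lowest of 4 groups by GC content, the median change was 0.23 in the deeper pair and -0.08 in the shallower pair. In the highest it was -0.14 and 0.05. Coding length gave rho of 0.0659 and 0.0917 in the pairs, and the RNA-Seq change 0.0157 and 0.154. The part of base composition in any gene's change was not tested gene by gene. A fit with the block and with the GC trend of each pair removed, chosen after seeing the data, called 28 transcripts (0.294%), 9 higher and 19 lower, and these held all 10 of the block fit.

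**Figure D4:**
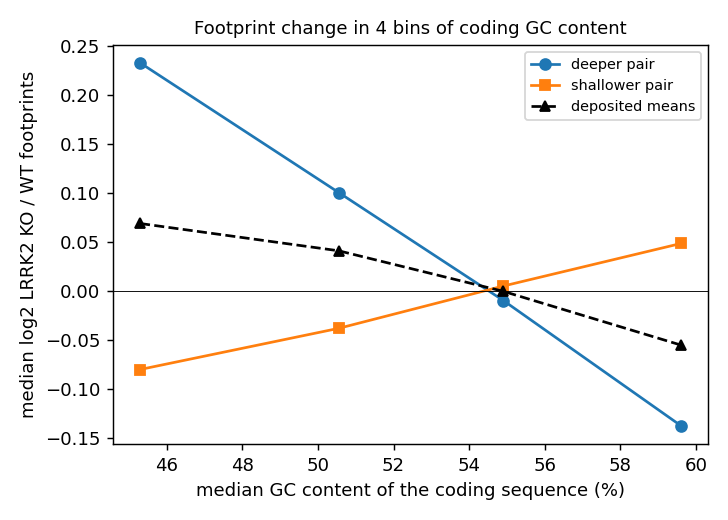
Median footprint change (log2, LRRK2 KO over WT) in 4 groups of transcripts by coding GC content, in the deeper pair and the shallower pair (10 added to each library) and for the deposited means (nothing added). The deeper pair goes from 0.23 to -0.14 and the shallower pair from -0.08 to 0.05.

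Among the 18 further genes of that fit, Txnrd1, the cytosolic thioredoxin reductase, had 266 and 329 normalized footprints in WT and 411 and 526 in LRRK2 KO. Both pairs went up, by 0.61 and 0.66, and the fit gave a rise of 0.61 (SE 0.11, adjusted p = 3.71e-05). Rabl2a, a Rab-like GTPase of cilia, had 68.5 and 71.9 in WT and 28.1 and 39.2 in LRRK2 KO, and fell in that fit (-0.89, adjusted p = 0.00999). Rabl2a was 1 of 2 called transcripts without a coding GC value, so no trend was taken from it and its -0.89 is that of the block fit, where its adjusted p was 0.0957; the pooled spread alone differed. Rpap3 and Slc4a8 on chromosome 15 fell in it as well, at -0.68 and -0.57.

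The proteins that LRRK2 phosphorylates did not separate. Of 11 measured Rab GTPases, 8 were above 0 and 3 below, between -0.04 and 0.07, with a median of 0.04 against 0.02 over all transcripts, and limma with the block called 0 with 0 unadjusted. Their median was 0.19 in the deeper pair and -0.09 in the shallower pair, and 1 of the 11 had the same sign in both. Rab3a, which tethers synaptic vesicles, had 5602 and 5440 normalized footprints in WT and 6023 and 5503 in LRRK2 KO. Rab3b and Rab3c, its relatives, had changes of 0.06 and 0.02. The 14-3-3 proteins, which bind phosphorylated LRRK2, ranged from -0.08 to 0.03 over 6 members with a median of -0.03, which was 0.12 in the deeper pair and -0.12 in the shallower pair, and 0 were called and 0 unadjusted. Ywhaz, the most abundant of them, had means of 13667 and 13990. Parkinson's disease genes had a median of -0.01 over 19 members, with 8 above 0, 1 higher and 1 lower without overlap, and 0 called or unadjusted. Pla2g6, a phospholipase gene, had 94.2 and 97.3 in WT and 115 and 133 in LRRK2 KO. Uchl1, a ubiquitin hydrolase, had means of 6377 and 6348, and Pink1, a mitochondrial kinase, had 1677 and 1510.

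Of 14 projection neuron markers 12 were above 0, with a median of 0.10 and 0 called or unadjusted. In the limma fit with the GC trend removed their median was 0.14. Their summed level was 44555 and 33665 in the WT libraries and 47648 and 34082 in the LRRK2 KO libraries. Tac1, the substance P precursor, had 801 and 408 in WT and 1089 and 408 in LRRK2 KO, and Drd1a, the D1 dopamine receptor, had 797 and 300 in WT and 1024 and 306 in LRRK2 KO. In both genes the deeper pair carried the difference. Interneuron markers had a median of 0.08 over 8 members and cortical markers 0.01 over 8, with 0 called or unadjusted in either. The cortical median was -0.26 in the deeper pair and 0.22 in the shallower pair, with a summed level of 3229 and 2197 in WT and 2631 and 2473 in LRRK2 KO. Sst, which marks somatostatin interneurons, had means of 830 and 745. Ddc, the dopa decarboxylase, was lower without overlap, with 47.5 and 65.3 in WT and 34.2 and 44.8 in LRRK2 KO, and was not called. Fewer cells of a type and less RNA per cell cannot be told apart in such pools.

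Markers of some other cells varied with the pair. Of 10 oligodendrocyte markers 2 were above 0, with a median of -0.07, which was 0.11 in the deeper pair and -0.22 in the shallower pair. Cnp, a myelin enzyme, had 3652 and 7829 in WT and 3388 and 7030 in LRRK2 KO. Astrocyte markers had a median of -0.05 over 8 members, which was 0.04 in the deeper pair and -0.27 in the shallower pair, with 2 lower without overlap and 1 unadjusted. That gene was Gfap, the astrocyte filament protein, with 252 and 277 in WT and 165 and 238 in LRRK2 KO. In the limma fit with the GC trend removed the astrocyte median was -0.15. All 7 microglial markers were above 0, with a median of 0.06, but P2ry12 and C1qb, at 0.00, lay below the median of all transcripts, and 0 were called or unadjusted. The microglial median was similar in both pairs, 0.11 in the deeper pair and 0.12 in the shallower pair. Their summed level was 762 and 120 in WT and 869 and 124 in LRRK2 KO, so the deeper libraries held far more of them. Csf1r, the receptor that microglia need to survive, had means of 122 and 149. The 2 endothelial and pericyte genes had a median of -0.14 and 0 unadjusted, with Rgs5, a pericyte regulator of G proteins, at 67.8 and 59.9. Their median was -0.17 in the deeper pair and -0.12 in the shallower pair. The 3 choroid plexus genes had a median of 0.02, which was 0.23 in the deeper pair and -0.45 in the shallower pair, with 1 unadjusted: Ttr, the thyroxine carrier, had 81 and 87.9 in WT and 165 and 18.2 in LRRK2 KO.

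All 3 genes of red blood cells were below 0, with a median of -0.64, and all 3 had an unadjusted p under 0.05 with the block, against 2.65% of all transcripts. Without the block 0 did, limma called 0 in either fit, and 0 of the 3 had the same sign in both pairs. Hba-a2, an alpha globin gene, had 2517 and 654 normalized footprints in WT and 1252 and 690 in LRRK2 KO. The summed level was 5375 and 1364 in WT and 2716 and 1537 in LRRK2 KO, so the deeper WT library held the excess. The median was -0.97 in the deeper pair and 0.24 in the shallower pair. With the GC trend removed Hba-a2 was called lower. The 3 Y-linked genes had a median of -0.21, with 0 unadjusted.

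Immediate early genes, which neurons transcribe within minutes of activity, were the list with the most transcripts past the test. Of 18 members limma with the block called 2, Nr4a3 higher and Npas4 lower, and 10 had an unadjusted p under 0.05, against 2.65% of all transcripts. Without the block 1 of the 18 did, and the 10 rest on the spread pooled over transcripts of like abundance. Without overlap 5 were higher (27.8%) and 4 lower (22.2%), against 6.22% and 6.41% of all transcripts. The median was 0.06, which was -0.21 in the deeper pair and 0.31 in the shallower pair. Cortical markers went the same way in each pair, at -0.26 and 0.22, and their part in this list was not tested. Of the immediate early genes 14 of 18 had the same sign in both pairs, of the cortical markers 3 of 8, and of all transcripts 4162 of 9536. Higher were Egr1, Fosb, Fosl2, Nr4a3 and Per1, and lower were Arc, Fos, Jun and Npas4. Egr1, a zinc finger transcription factor, had 3058 and 3115 normalized footprints in WT and 3443 and 4361 in LRRK2 KO. Arc, which removes AMPA receptors from synapses, had 1243 and 1018 in WT and 866 and 815 in LRRK2 KO. Fos, a partner in the AP-1 transcription factor, had 311 and 229 in WT and 158 and 225 in LRRK2 KO. Fosl2, its relative, had 132 and 120 in WT and 173 and 242 in LRRK2 KO. Members thus lay in both directions. With the GC trend removed 5 were called higher (Egr1, Fosl2, Nr4a2, Nr4a3 and Per1) and 2 lower (Arc and Npas4), against 0.294% of all transcripts. Nr4a2, a nuclear receptor of dopamine neurons, had 233 and 364 in WT and 283 and 656 in LRRK2 KO. Junb, another AP-1 partner, had a change of -0.47 with overlapping libraries.

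The translation machinery lay near 0. The 33 proteins of the small ribosomal subunit had a median of 0.01 and the 42 of the large subunit -0.01, with 0 called and 0 unadjusted in either. Rps29 had means of 592 and 668, and Rpl38 had 644 and 687. The 41 initiation factors had a median of 0.03, with 5 higher (12.2%) and 0 lower without overlap, against 6.22% and 6.41% of all transcripts, and 0 called or unadjusted. Eif4e, which binds the mRNA cap, had 467 and 584 in WT and 640 and 578 in LRRK2 KO. Eif5, which triggers GTP hydrolysis at the start codon, had 420 and 454 in WT and 501 and 558 in LRRK2 KO. Elongation factors had a median of -0.02 over 7 members, with 0 unadjusted of the 5 tested, and Eef1a2, the neuronal form of the factor that delivers tRNAs, had means of 11222 and 11260. The 17 aminoacyl-tRNA synthetases, which load tRNAs, had a median of -0.01 with 0 unadjusted, and Kars was higher without overlap at 0.17. The 18 genes of the integrated stress response had a median of 0.00 with 0 unadjusted. Atf4, its main transcription factor, had 75.5 and 89.3 in WT and 54.1 and 65.7 in LRRK2 KO.

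Channels and receptors were also close to all transcripts. Calcium channel subunits had a median of 0.02 over 15 members, with 0 called and 1 unadjusted, Cacna1c, the L-type pore subunit, at 297 and 87.9 in WT and 365 and 137 in LRRK2 KO. Ionotropic glutamate receptors had a median of 0.07 over 10 members and GABA-A receptors 0.13 over 11, with 0 unadjusted in either. In the deeper pair these medians were 0.12 and 0.24, and in the shallower pair -0.09 and -0.13. In the limma fit with the GC trend removed they were 0.01 and -0.04. Grin1, the obligatory NMDA receptor subunit, had means of 2211 and 2330, and Gabrd, an extrasynaptic GABA-A receptor subunit, had 532 and 573. Potassium channels had a median of 0.06 over 25 members with 0 unadjusted, and Kcnd2, an A-type channel, had means of 486 and 517.

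At the synapse, vesicle and release genes had a median of 0.01 over 26 members, with 0 called and 1 unadjusted, Unc13b, a vesicle priming gene, at -0.45. Snap25, a membrane fusion protein, had means of 14520 and 13128, and Slc32a1, the vesicular GABA transporter, had 1151 and 1289. Clathrin endocytosis genes had a median of -0.01 over 21 members, with 0 unadjusted, and Dnm1, the dynamin that severs vesicles, had means of 8343 and 7970. Postsynaptic scaffolds had a median of 0.04 over 13 members, with 2 higher and 1 lower without overlap and 0 unadjusted. Dlg4, the scaffold PSD-95, had 1381 and 1447 in WT and 1466 and 1604 in LRRK2 KO. Homer1, which links glutamate receptors to calcium stores, had 704 and 879 in WT and 730 and 1241 in LRRK2 KO.

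Lysosomal genes, whose products break down macromolecules, had 20 of 25 members above 0 and a median of 0.08, but 0 were called or unadjusted. Their median was 0.17 in the deeper pair and -0.16 in the shallower pair, and -0.003 in the limma fit with the GC trend removed. Psap, the precursor of sphingolipid activators, had 8856 and 2491 in WT and 9688 and 2262 in LRRK2 KO, and Ctsd, the protease cathepsin D, had 998 and 366 in WT and 1258 and 330 in LRRK2 KO. Both went up in the deeper pair and down in the shallower pair. Vacuolar ATPase subunits, which acidify lysosomes, had a median of 0.02 over 18 members with 0 unadjusted, and Atp6v0c had means of 4123 and 3598.

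Metabolic and housekeeping lists lay near 0. The respiratory chain and ATP synthase had a median of 0.02 over 72 members, glycolytic enzymes -0.05 over 19, proteasome subunits 0.02 over 30, cytosolic chaperones 0.02 over 20, endoplasmic reticulum chaperones 0.04 over 15 and tubulins -0.03 over 15. Among members with all 4 libraries, limma with the block called 0 in each of these, with 0 unadjusted. Ndufa13, a complex I subunit, had means of 853 and 729, and Gapdh, a glycolytic enzyme, had 17971 and 18246. Stub1, a chaperone-linked ubiquitin ligase, had 597 and 572 in WT and 562 and 452 in LRRK2 KO, without overlap. Hspa5, the main endoplasmic reticulum chaperone, had means of 1049 and 1139, and Tuba1a, a neuronal alpha tubulin, had 20271 and 18611.

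Among 1770 transcripts with both means of at least 500 and all libraries resolved, 62 were higher (3.50%) and 72 lower (4.07%) without overlap, smaller shares than the 6.22% and 6.41% of all transcripts. The highest of these was Glo1, the glyoxalase that clears methylglyoxal, with 481 and 525 normalized footprints in WT and 807 and 536 in LRRK2 KO. The difference sat in the deeper pair, 0.73 against 0.03. Sf1, which recognises the splicing branch point, had 848 and 759 in WT and 926 and 1059 in LRRK2 KO. Pdp1, a phosphatase that activates pyruvate dehydrogenase, had 1157 and 1303 in WT and 1311 and 1693 in LRRK2 KO. Pde7b, a cAMP phosphodiesterase abundant in striatum, had 1090 and 1103 in WT and 1262 and 1273 in LRRK2 KO, so both pairs gave about the same change, 0.21 and 0.20. Wasl, an actin nucleation factor, Ptpn11, the phosphatase SHP2, and Cit, the citron kinase, had changes of 0.28, 0.22 and 0.24. Ylpm1 and 6330403K07Rik had 0.25 and 0.31.

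At the low end after Arc stood Rnf187, a RING ubiquitin ligase, with 2298 and 1564 normalized footprints in WT and 1481 and 1493 in LRRK2 KO. Prkca, protein kinase C alpha, had 730 and 787 in WT and 520 and 676 in LRRK2 KO. Srsf5, a splicing regulator, had 888 and 829 in WT and 791 and 578 in LRRK2 KO. None of these was called with the block, but all 3 were called lower with the GC trend removed. Basp1, a growth cone protein, and Anxa6, a calcium-dependent membrane binder, had changes of -0.32 and -0.32. Haghl, Eid1 and Efhd2 had -0.30, -0.25 and -0.24. Rnf112, a neuronal RING protein, had 1417 and 1396 in WT and 1200 and 1195 in LRRK2 KO, a change of -0.24 in the deeper pair and -0.22 in the shallower pair.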

How the data were processed

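The authors deposited signal, as group means of reads normalized with DESeq 1.20 size factors. Per the processing notes of the submitters, CASAVA 1.8, TopHat2 2.0.11, Bowtie2 2.2.2 and mm9 were used. The deposited folding energies of 5' UTRs are in another unit and were used only in correlations and in groups of transcripts, not reported here. Columns of translation efficiency and its change were not used. Reads were recovered in Python 3.11.15 (numpy 2.4.6, pandas 2.3.3, scipy 1.17.1; checked on simulated means) and tested with limma 3.58.1 in R 4.3.3 on log2(normalized footprints + 10), Benjamini-Hochberg adjusted; figures used matplotlib 3.10.9. Counting SDs cover counting error only.

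The members and the 36 gene lists were chosen with earlier results of these data known. Named genes were Lrrk2, the 10 highest and 10 lowest changes with means of at least 500 and no overlap, genes within 5 Mb of Lrrk2, called transcripts, and from each list the 2 with the most footprints per coding length and the 2 with the largest change among members with both means of at least 500; examples were printed. Other named genes were chosen after their values were seen. The pairing of libraries was checked by rank correlation and transcripts at 0. Symbols altered to dates were not named, and results of a few genes were left out. Alternatives were another pseudocount, a filter on means of at least 256, voom weights, median centring, the block and leaving out each library.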

Additional observations from a re-analysis of the deposited data

How the results depend on the processing

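Without pairs, 0 transcripts were called by limma under every alternative, and 0 to 0 when a library was left out. With the library pair as a block, 10 were called; with settings chosen after seeing the data, 10 were called at a pseudocount of 1, 2 with the filter on low means (which removes Lrrk2 itself), 15 with voom weights, 8 with a robust spread, 10 with libraries centred on their median and 28 with the coding GC trend of each pair removed. The 10 block calls were all among the 15 and the 28. Lrrk2 passed the threshold only with the pair as a block (-2.00), and lay between -2.39 and -1.62 when a library was left out.

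The SD of the change was 0.119 with the filter on low means, 0.173 with a pseudocount of 10, and 0.373 to 0.479 without a library. Transcripts 1.5-fold higher numbered 3 and 25 under the first 2, and 188 to 1363 without a library; those lower numbered 3 and 24, and 182 to 1424. With the filter, non-overlapping transcripts numbered 158 higher and 146 lower. Fewer transcripts were counted under the filter; other causes were not tested.

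Cdhr1 ranged from -0.61 to 3.90 and Ptgds from -2.86 to 1.08 without a library, and Ptgds was 0.31 without the shallower LRRK2 KO library. Of 332 values of named genes under other settings 311 stayed within the spread between libraries and 21 did not; of 627 without a library, 544 did, 80 did not and 3 called values reversed. The sign changed in 7 of the 332 and in 195 of the 627. For list medians 67 of 68 stayed and 8 changed sign, and without a library 112 of 144 stayed and 62 changed sign.

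Each genotype had 2 libraries. Leaving one out leaves a lone library, assumed to vary like the others. With the block, leaving one out leaves no residual degree of freedom, so it was not run there. The lone library was set against both libraries of the other genotype. Changes, SDs, counts and signs without a library therefore also hold the gap between deeper and shallower libraries. A difference confined to 1 pair cannot be told apart from a difference between pools of mice.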
